A study of Mus musculus with 2 samples.

Results

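The collagens outside cartilage were examined in mouse embryonic fibroblasts (MEFs), connective-tissue cells grown from embryos at 13.5 days post coitum. The MatDup.dist7 culture carries the distal part of chromosome 7 as 2 copies of maternal origin, and the PatDup.dist7 culture carries it as 2 copies of paternal origin. Both were grown in the same serum-containing medium, and each was hybridised to 1 Affymetrix array, so there is no replicate and no difference below was tested. The labels used here state neither the strain or sex nor how many embryos went into each culture. Members are all genes whose probe set carries a single platform symbol of the form Col, number, a, number, apart from Col2a1, Col9a1, Col9a2, Col9a3, Col10a1, Col11a1 and Col11a2 of cartilage. This gave 37 genes on 39 probe sets, out of 19939 named genes on the arrays. None of them lies on chromosome 7 (0 of 37), the chromosome whose distal part sets the genotypes apart.

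Collagens are secreted proteins whose polypeptide chains wind into a triple helix. Fibrillar collagens form the cable-like fibrils of skin, tendon and bone, network collagens form the sheets of basement membranes, and FACIT collagens (fibril-associated collagens with interrupted triple helices) decorate fibril surfaces. Transmembrane collagens stay anchored in the cell membrane with the triple helix outside. Cultured fibroblasts are a classical source of type I collagen, the main fibrillar form, and of types III, V and VI.

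Most collagens outside cartilage had a lower signal in MatDup.dist7 cells, by modest amounts. On the log2(intensity + 16) scale, 27 of the 37 genes were lower in MatDup.dist7 and 10 were higher, where 48.6% of all genes were lower. The median difference, always MatDup.dist7 minus PatDup.dist7, was -0.50, against 0.02 over all genes. At a 2-fold threshold, 0 of 37 were higher in MatDup.dist7 (background 4.47% of all genes) and 5 of 37, or 13.5%, were higher in PatDup.dist7 (background 3.16%). At 1.5-fold, 3 of 37 were higher in MatDup.dist7 (8.11%, background 15.5%) and 13 of 37 were higher in PatDup.dist7 (35.1%, background 12.5%). Since the rule asks for no signal, 7 of the 37 genes lay at or below the median of all probe sets (an intensity of 66.4, called the signal filter below) on both arrays, and 30 passed it on 1 array or both. The 5 genes beyond 2-fold were Col12a1, Col5a3, Col18a1, Col4a4 and Col26a1. With a pseudocount of 64 in place of 16, Col12a1 alone passed 2-fold (-1.08), with Col5a3 at -0.85, Col18a1 at -0.93, Col4a4 at -0.68 and Col26a1 at -0.77.

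**Figure D1:**
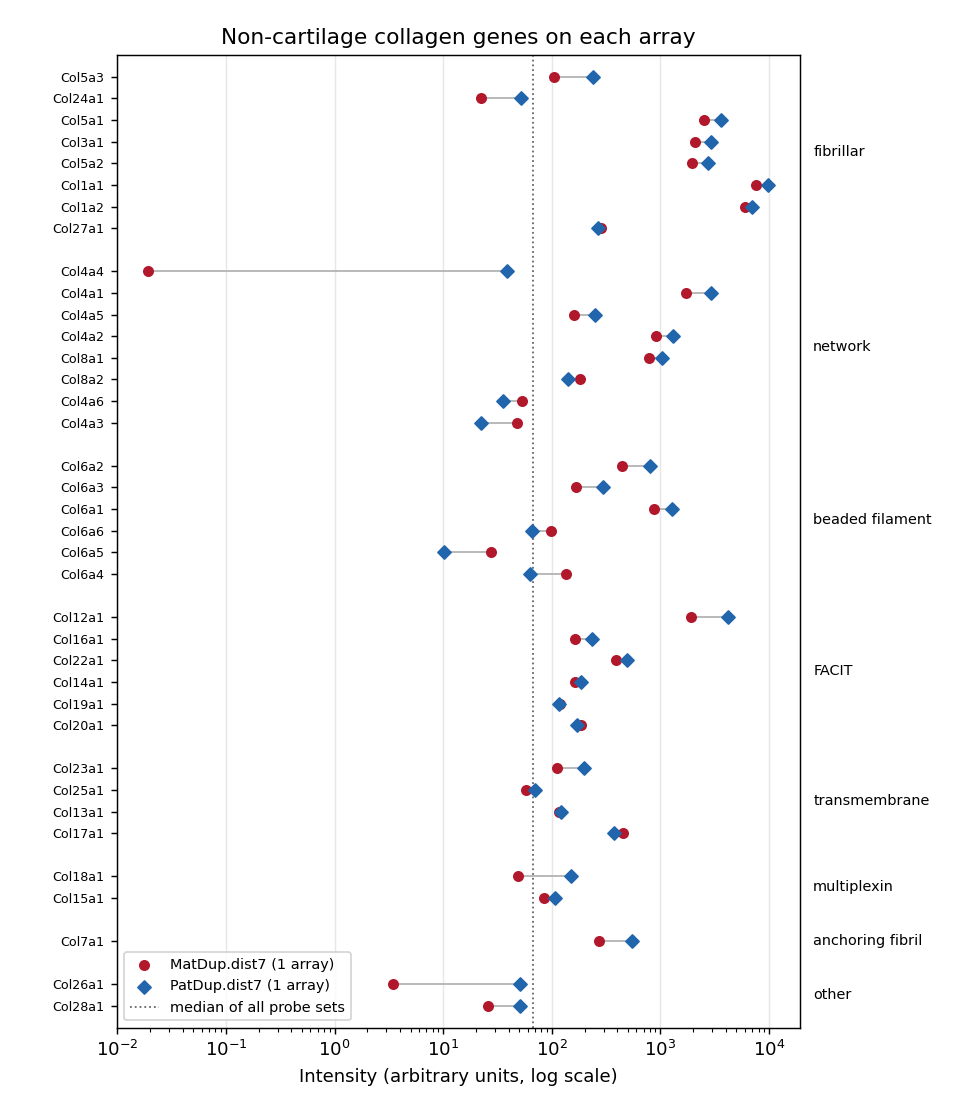
Intensity (log axis) of each of the 37 genes on the MatDup.dist7 array (red circles) and the PatDup.dist7 array (blue diamonds), grouped by collagen class, with 1 array per genotype. For 27 genes the red point lies left of the blue one. The dotted line is the median of all probe sets.

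The 11 collagens with an intensity of at least 562, the 90th percentile of all probe sets, on either array were all lower in MatDup.dist7. They were Col1a1, Col1a2, Col3a1, Col5a1, Col5a2, Col4a1, Col4a2, Col8a1, Col6a1, Col6a2 and Col12a1, and their differences ran from -1.10 to -0.21 with a median of -0.52. A lean in the same direction was present in bright genes generally: of 2116 genes at this level, 62.9% were lower in MatDup.dist7, with a median of -0.14. Col6a2 reached the level in PatDup.dist7 alone. When bright genes were instead chosen by the mean of the arrays, a rule added after the values were seen, the same 11 collagens were selected, and 63.1% of the 1839 genes so chosen were lower in MatDup.dist7 (median -0.12). The spread between probe sets of the same gene gives a scale for these values. It had a standard deviation of 0.40 (log2 difference about the gene's mean, 1722 probe sets above the signal filter, of 642 genes). It holds no variation between cultures.

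**Figure D2:**
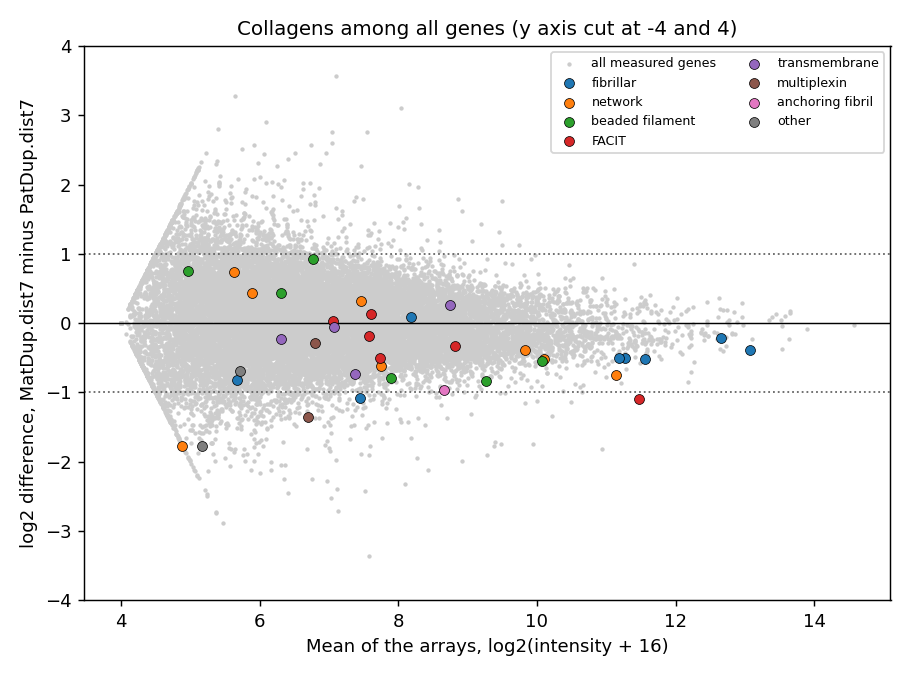
Difference between the arrays (vertical axis, log2) against the mean level (horizontal axis, log2(intensity + 16)) for all measured genes (grey) and for the collagens by class (colours). The grey cloud narrows toward the right, and the 11 brightest collagens lie below 0, with differences from -1.10 to -0.21.

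Several promoters were read to see what these genes share in sequence. The windows below cover the 250 bases before the RefSeq start on the gene's strand in build GRCm38.p6. They are shown for 3 bright fibrillar genes lower in MatDup.dist7, Col1a2 (-0.21), Col3a1 (-0.50) and Col5a1 (-0.52), and for Col5a3, the fibrillar gene beyond 2-fold. Capitals mark 3 motifs searched on both strands at any position in the window. They were TATAAA (the sequence of the TATA box), CCAAT (of the CCAAT box) and GGGCGG (of the GC box). No 2 of these motifs overlap in the windows shown.
Col1a2: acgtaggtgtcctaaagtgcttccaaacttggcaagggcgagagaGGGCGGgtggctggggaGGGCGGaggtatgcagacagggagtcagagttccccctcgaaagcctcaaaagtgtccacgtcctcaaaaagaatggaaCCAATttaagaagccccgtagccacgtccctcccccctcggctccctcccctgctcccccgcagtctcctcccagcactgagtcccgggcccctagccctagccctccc
Col3a1: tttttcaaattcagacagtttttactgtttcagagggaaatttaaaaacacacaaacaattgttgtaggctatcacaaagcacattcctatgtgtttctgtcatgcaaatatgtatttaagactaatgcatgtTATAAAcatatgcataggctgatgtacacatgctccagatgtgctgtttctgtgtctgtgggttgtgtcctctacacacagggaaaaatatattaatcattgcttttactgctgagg
Col5a1: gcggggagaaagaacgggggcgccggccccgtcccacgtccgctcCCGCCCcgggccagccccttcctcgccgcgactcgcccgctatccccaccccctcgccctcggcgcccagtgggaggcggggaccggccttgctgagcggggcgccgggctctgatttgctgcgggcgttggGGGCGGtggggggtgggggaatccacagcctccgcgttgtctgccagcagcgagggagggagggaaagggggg
Col5a3: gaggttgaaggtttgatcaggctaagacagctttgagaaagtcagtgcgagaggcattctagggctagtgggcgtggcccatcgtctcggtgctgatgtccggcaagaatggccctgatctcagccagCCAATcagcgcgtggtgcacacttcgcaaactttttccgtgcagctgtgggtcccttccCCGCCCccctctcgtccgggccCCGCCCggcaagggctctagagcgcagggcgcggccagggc
These lie at chr6:4505368-4505617 (plus strand), chr1:45311288-45311537 (plus strand), chr2:27886175-27886424 (plus strand) and chr9:20815068-20815317 (minus strand). The windows differed widely in base composition, with a GC content of 62% for Col1a2, 35.2% for Col3a1, 76.4% for Col5a1 and 62.8% for Col5a3. Col1a2 held CCAAT from 109 bases before the start, Col5a3 held it from 122 bases, and Col3a1 held TATAAA from 117 bases. Of the 37 genes, 30 had windows, 32 in all. GGGCGG stood in 19 of the 32 (59.4%), against 32.7% of all 32851 windows. CCAAT stood in 11 (34.4%, against 33.8%) and TATAAA in 3 (9.38%, against 12.4%). A match is only a description of the letters, and these 4 windows share no single motif.

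Among the 8 fibrillar genes, 7 (87.5%) were lower in MatDup.dist7, against 48.6% of all genes and 62.9% of bright genes. Of the 8, 5 were bright. Col5a3 was beyond 2-fold, and the class median was -0.50. Col1a1 encodes the alpha 1 chain of type I collagen and gave intensities of 7565 in MatDup.dist7 cells against 9870 in PatDup.dist7 cells (log2 difference -0.38). Col1a2, its partner chain, had 6014 in MatDup.dist7 cells against 6962 in PatDup.dist7 cells (-0.21), the smallest difference of the 11 bright collagens. Both type I chains were thus lower in MatDup.dist7 by less than the 0.40 spread, which pools probe sets of every level above the signal filter. Bright genes differed less than others: 6.47% were 1.5-fold higher in PatDup.dist7, against 12.5% of all genes. The spread at the level of the type I genes alone was not computed.

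Col3a1, the chain of the type III homotrimer that accompanies type I in extensible tissues, had 2062 in MatDup.dist7 cells against 2932 in PatDup.dist7 cells (-0.50). Col5a1, a type V chain that sets fibril diameter by nucleating fibrils, had 2496 in MatDup.dist7 cells against 3591 in PatDup.dist7 cells (-0.52). Col5a2, the other common type V chain, had 1949 in MatDup.dist7 cells against 2762 in PatDup.dist7 cells (-0.50). Col3a1, Col5a1 and Col5a2 were 1.42-fold, 1.44-fold and 1.41-fold higher in PatDup.dist7, an almost equal amount.

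Col5a3, a type V chain of more restricted expression, differed more, with 104 in MatDup.dist7 cells against 239 in PatDup.dist7 cells (-1.09, or 2.12-fold higher in PatDup.dist7). Of the remaining fibrillar genes, Col24a1 lay under the signal filter at 22.2 in MatDup.dist7 cells against 51.7 in PatDup.dist7 cells (-0.82). Col27a1, a fibrillar collagen best known from developing cartilage, had 284 in MatDup.dist7 cells against 265 in PatDup.dist7 cells (0.09), and was the single fibrillar gene higher in MatDup.dist7.

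The 8 network genes split by chain, 5 lower (62.5%) and 3 higher in MatDup.dist7, with a median of -0.46. Of all genes 48.6% were lower, and of bright genes 62.9%. Of the 8, 3 were bright. Col4a1, which with Col4a2 forms the ubiquitous type IV trimer of basement membranes, had 1727 in MatDup.dist7 cells against 2919 in PatDup.dist7 cells (-0.75). Col4a2 had 900.4 in MatDup.dist7 cells against 1303 in PatDup.dist7 cells (-0.53). These genes lie head to head on opposite strands of chromosome 8. Their RefSeq starts are 21 bases apart, placed so that the annotated transcripts overlap there. Their differences were 0.23 apart.

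The chains of restricted basement membranes, such as those of kidney and lung, had weaker signals and no common direction. Col4a3 had 48.1 in MatDup.dist7 cells against 22.3 in PatDup.dist7 cells (0.74). Col4a4, its head-to-head neighbour on chromosome 1, was listed at 0.0192 in MatDup.dist7 cells against 38.6 in PatDup.dist7 cells (-1.77). Both genes lay under the signal filter, so the gap of 2.51 across Col4a3, Col4a4 and Col4a5 rests on dim probe sets, and the low Col4a4 value, read from a single probe set, is no evidence that the transcript was missing.

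On the X chromosome, Col4a5 had 159 in MatDup.dist7 cells against 251 in PatDup.dist7 cells (-0.61), while the adjacent Col4a6, under the filter, had 52.8 in MatDup.dist7 cells against 35.2 in PatDup.dist7 cells (0.43). Type VIII collagen forms hexagonal lattices beneath endothelium and cornea. Its Col8a1 chain had 781 in MatDup.dist7 cells against 1027 in PatDup.dist7 cells (-0.39), and its Col8a2 chain had 180.3 in MatDup.dist7 cells against 142 in PatDup.dist7 cells (0.31). The type VIII chains thus pointed in opposite directions, 0.70 apart.

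Beaded-filament collagen is type VI, a microfibril that links cells to the surrounding matrix. Its class median of -0.05 hides a split between the classical chains and a second gene group. The classical chains Col6a1, Col6a2 and Col6a3 were all lower in MatDup.dist7, between -0.84 and -0.54. Col6a1 had 875 in MatDup.dist7 cells against 1281 in PatDup.dist7 cells, and its neighbour on chromosome 10, Col6a2, had 445 in MatDup.dist7 cells against 809 in PatDup.dist7 cells (-0.84). Col6a3 had 166 in MatDup.dist7 cells against 297.5 in PatDup.dist7 cells (-0.79).

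Col6a4, Col6a5 and Col6a6, adjacent genes on chromosome 9 that encode alternative partners for the type VI trimer, had positive mean differences between 0.43 and 0.93, although the probe sets of Col6a5 disagreed in sign. Col6a4 had 135 in MatDup.dist7 cells against 63.3 in PatDup.dist7 cells (0.93), the largest difference toward MatDup.dist7 among the 37 genes. Col6a6 had 98.4 in MatDup.dist7 cells against 66.3 in PatDup.dist7 cells as the mean of its probe sets (0.43), which gave 0.36 and 0.51. Col6a4, and Col6a6 by this mean, lay above the signal filter in MatDup.dist7 alone. The brighter Col6a6 probe set passed it on both arrays. Of the probe sets of Col6a5, 1 stood at 43.8 in MatDup.dist7 cells against 0.00702 in PatDup.dist7 cells (1.90), and the other at 11.6 in MatDup.dist7 cells against 20.1 in PatDup.dist7 cells (-0.39). Its mean difference of 0.76 therefore has no settled direction.

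**Figure D3:**
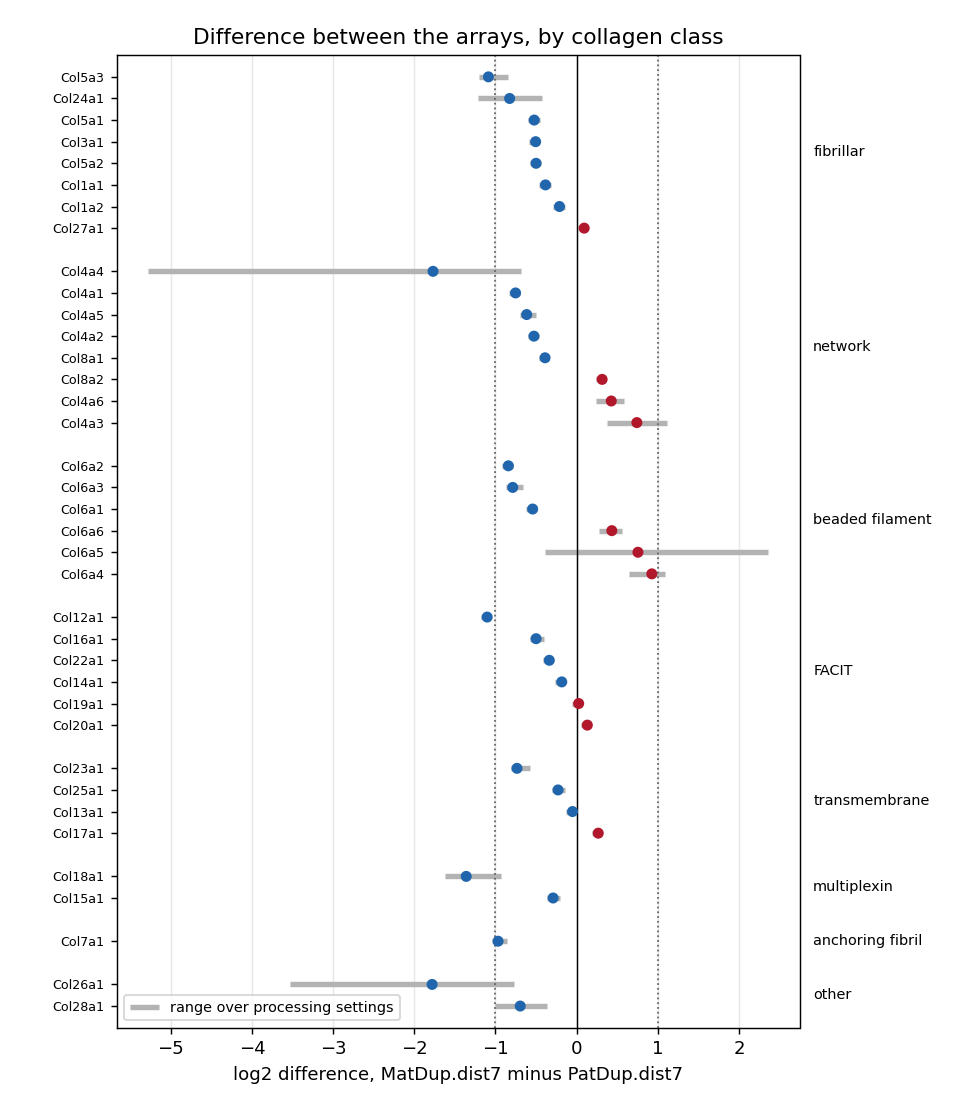
Log2 difference of each collagen gene, MatDup.dist7 minus PatDup.dist7 (points, red above 0 and blue below), grouped by class, with grey bars for the range over the processing settings tried and dotted lines at 2-fold. The bars of the bright fibrillar and type VI chains are short, whereas that of Col4a4 runs from -5.28 to -0.68 and that of Col6a5 crosses 0.

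All 6 FACIT genes lay above the signal filter, as did 12769 of all 19939 genes. Of the 6, 4 (66.7%) were lower and 2 higher in MatDup.dist7, with a median of -0.26. Of all genes above the filter, 50.7% were lower. Col12a1, which coats type I fibrils in tendon, ligament and stretched tissue, had 1926 in MatDup.dist7 cells against 4151 in PatDup.dist7 cells (-1.10, or 2.15-fold higher in PatDup.dist7). It was the only one of the 11 bright collagens beyond 2-fold, a size that 1.23% of all genes at that level reached toward PatDup.dist7. Col14a1, the closest relative of Col12a1, had 163 in MatDup.dist7 cells against 187 in PatDup.dist7 cells (-0.18), and did not show a difference of that size. Col16a1 had 163 in MatDup.dist7 cells against 236 in PatDup.dist7 cells (-0.50), and Col22a1, known from tissue junctions such as that of muscle and tendon, had 386 in MatDup.dist7 cells against 492 in PatDup.dist7 cells (-0.34). Col19a1 and Col20a1 were nearly equal on the arrays. Col19a1 had 119 in MatDup.dist7 cells against 116 in PatDup.dist7 cells (0.03), and Col20a1 had 187 in MatDup.dist7 cells against 169.6 in PatDup.dist7 cells (0.13).

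The 4 transmembrane genes had a median of -0.14, and none reached 2-fold. Col23a1 had the largest difference, with 113 in MatDup.dist7 cells against 198 in PatDup.dist7 cells (-0.73). Col17a1, the hemidesmosome collagen of epidermal keratinocytes, had 456 in MatDup.dist7 cells against 376 in PatDup.dist7 cells (0.27). Col13a1, found at cell adhesions and the neuromuscular junction, had 117 in MatDup.dist7 cells against 122 in PatDup.dist7 cells (-0.05). Col25a1, first isolated from amyloid plaques, had 57.3 in MatDup.dist7 cells against 69.9 in PatDup.dist7 cells (-0.23). It lay above the signal filter in PatDup.dist7 alone.

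Basement-membrane-zone collagens outside these classes were lower in MatDup.dist7. Col18a1, a multiplexin whose C-terminal fragment is endostatin, had 48.7 in MatDup.dist7 cells against 150 in PatDup.dist7 cells (-1.36, or 2.57-fold higher in PatDup.dist7), and lay above the signal filter in PatDup.dist7 alone. Col15a1, the other multiplexin, had 84.6 in MatDup.dist7 cells against 107 in PatDup.dist7 cells (-0.29). Col7a1, which forms the anchoring fibrils that tie epidermis to dermis, had 272 in MatDup.dist7 cells against 547 in PatDup.dist7 cells (-0.97), just short of 2-fold. The last members, Col26a1 (3.48 in MatDup.dist7 cells against 50.9 in PatDup.dist7 cells, -1.78) and Col28a1 (25.6 in MatDup.dist7 cells against 51.3 in PatDup.dist7 cells, -0.69), both lay under the signal filter.

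Chains that assemble into 1 trimer can be compared through their differences. The chains were 0.17 apart in type I, 0.23 in the common type IV trimer and 0.30 in classical type VI. They were 0.59 apart in type V, where Col5a3 stood off, 0.70 in type VIII and 2.51 in the restricted type IV chains. In these bulk cultures, fewer collagen-producing cells and less collagen RNA per cell cannot be told apart.

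The genes that modify, fold, export and process collagen were divided evenly in direction. Of 39 listed, 36 had a value, 18 (50%) lower and 18 higher in MatDup.dist7, with a median of 0.00445. This split is near that of all genes, of which 48.6% were lower. Of the 36, 19 were bright, a level at which 62.9% of genes were lower. At 2-fold, 3 were higher in MatDup.dist7, and 1 was higher in PatDup.dist7 (backgrounds 4.47% and 3.16%). The 3 were P4ha3, a prolyl 4-hydroxylase subunit (200.1 in MatDup.dist7 cells against 75.4 in PatDup.dist7 cells, 1.24), Colgalt2, a collagen galactosyltransferase (83.1 in MatDup.dist7 cells against 29.8 in PatDup.dist7 cells, 1.11), and Tll2, a relative of Bmp1 (73.7 in MatDup.dist7 cells against 27.8 in PatDup.dist7 cells, 1.03). Colgalt2 and Tll2 lay above the signal filter in MatDup.dist7 alone. P4ha3 lies on chromosome 7, as do Serpinh1 of this list and the receptor gene Lair1. Whether P4ha3, Serpinh1 or Lair1 is in the distal segment was not established. Bmp1, the protease that cleaves the C-terminal propeptide of fibrillar procollagens, had 366 in MatDup.dist7 cells against 787 in PatDup.dist7 cells (-1.07).

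In each processing role the gene with the brightest probe sets differed by less than the 0.40 spread between probe sets. P4hb, the protein disulfide isomerase subunit of prolyl 4-hydroxylase, had 5754 in MatDup.dist7 cells against 6274 in PatDup.dist7 cells (-0.12). Serpinh1, which encodes the collagen chaperone HSP47, had 3394 in MatDup.dist7 cells against 2996 in PatDup.dist7 cells (0.18). Pcolce, the enhancer of propeptide cleavage, had 1900.0 in MatDup.dist7 cells against 1902 in PatDup.dist7 cells. Lox, the cross-linking lysyl oxidase, had 7594 in MatDup.dist7 cells against 7541 in PatDup.dist7 cells (0.01). Creb3l1, a transcription factor acting on secretory and collagen genes, differed by -0.19. Colgalt1 had the largest of these differences, 0.37, similar in size to that of Col1a1 (-0.38) and opposite in direction.

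**Figure D4:**
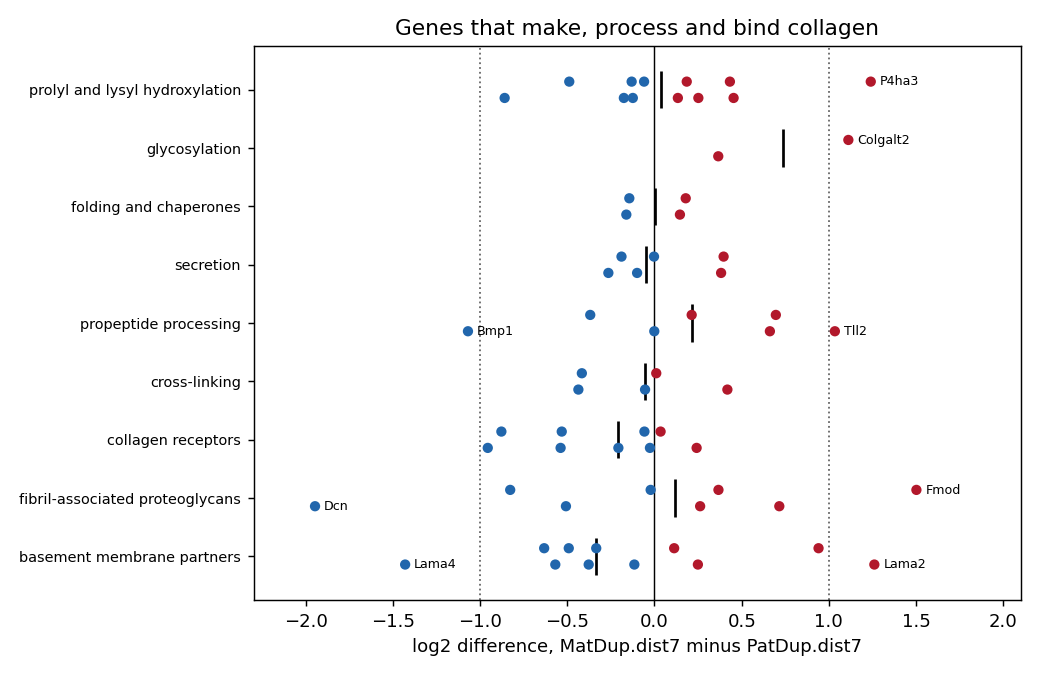
Log2 difference, MatDup.dist7 minus PatDup.dist7, of genes that make, process and bind collagen, by role (points, red above 0 and blue below), with the median of each role as a black bar and dotted lines at 2-fold. Points of the processing roles lie on either side of 0, with Bmp1 at -1.07 and P4ha3 at 1.24 as extremes.

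Of 28 measured receptors and matrix partners of collagen, 18 (64.3%) were lower in MatDup.dist7, against 48.6% of all genes, with a median of -0.16. At 2-fold, 2 (Fmod and Lama2) were higher in MatDup.dist7 (background 4.47%), and 2 (Dcn and Lama4) were higher in PatDup.dist7 (background 3.16%). Fmod and Lama2 lay above the signal filter in MatDup.dist7 alone, whereas Dcn and Lama4 passed it on both arrays. Of these 28 partners, 11 were bright, a level at which 62.9% of genes were lower. Of 9 measured collagen receptors, 7 were lower in MatDup.dist7 (77.8%), and none was 2-fold apart. Ddr2, the receptor tyrosine kinase for fibrillar collagen, had 574 in MatDup.dist7 cells against 841 in PatDup.dist7 cells (-0.54), and Itgb1, the shared integrin beta 1 chain, had 4545 in MatDup.dist7 cells against 4732 in PatDup.dist7 cells (-0.06). Small proteoglycans that bind fibrils went both ways. Dcn (decorin) had 142 in MatDup.dist7 cells against 592 in PatDup.dist7 cells (-1.95), Fmod (fibromodulin) had 124 in MatDup.dist7 cells against 33.4 in PatDup.dist7 cells (2.83-fold higher in MatDup.dist7), and Bgn (biglycan) had 7156 in MatDup.dist7 cells against 5545 in PatDup.dist7 cells (0.37).

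Basement membrane partners of type IV collagen had a median of -0.33, with 7 of 11 (63.6%) lower in MatDup.dist7, against 48.6% of all genes. Of these 11, 6 were bright, a level at which 62.9% of genes were lower. Lama4, a laminin chain of mesenchyme and vessels, had 145 in MatDup.dist7 cells against 418 in PatDup.dist7 cells (-1.43), and Lama2, a laminin chain of muscle, had 83.0 in MatDup.dist7 cells against 25.3 in PatDup.dist7 cells (1.26). Hspg2, which encodes perlecan, had 1590 in MatDup.dist7 cells against 2474 in PatDup.dist7 cells (-0.63), and Sparc, a collagen-binding protein, had 10426 in MatDup.dist7 cells against 13549 in PatDup.dist7 cells (-0.38). Of the 7 cartilage collagens left out of the rule, 5 were higher in MatDup.dist7, with a median of 0.40. The other 2 (28.6%) were lower, against 48.6% of all genes. Col2a1 differed by 1.97, Col11a1 by 0.98 and Col10a1 by -3.35.

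The fibroblast label was checked against marker genes. Of 11 fibroblast markers, 9 lay above the signal filter in MatDup.dist7 cells against 10 in PatDup.dist7 cells, and Vim (vimentin) had 11913 in MatDup.dist7 cells against 11542 in PatDup.dist7 cells. The markers summed to 27059 in MatDup.dist7 cells against 30114 in PatDup.dist7 cells, and 8 of 11 were lower in MatDup.dist7 (median -0.23). These 8 are 72.7% of the list, against 48.6% of all genes, and 6 of the 11 were bright. Summed intensities in MatDup.dist7 and PatDup.dist7 were 988 and 596 for 8 epithelial markers, 3093 and 3567 for 8 macrophage markers, 414 and 439 for 7 endothelial markers and 443 and 239 for 7 cartilage markers. They were 22129 and 20060 for 5 smooth muscle markers, 184 and 131 for the 3 bone markers measured of 6, and 150 and 86.3 for the 2 Schwann and glial markers measured of 4. Such sums follow the brightest genes. Acta2 and Tagln made up most of the smooth muscle sum, while 2 of the 5, Myh11 (-1.46) and Des (-0.75), were lower in MatDup.dist7. Of the 8 macrophage markers, 5 were lower and 3 higher, from -1.32 (Mrc1) to 0.96 (Adgre1). None of the markers in any of these lists was listed under 1 on either array. Xist, which silences an X chromosome in female cells, had a listed value of 0.00166 in MatDup.dist7 cells against 91.2 in PatDup.dist7 cells, and the Y-linked Uty stood at 77.9 in MatDup.dist7 cells against 2.61 in PatDup.dist7 cells, so sex and genotype cannot be told apart. The part that cell composition had in the collagen differences was not tested. Without the X-linked Col4a5 and Col4a6, 26 of 35 collagens were lower in MatDup.dist7, with a median of -0.50.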

How the data were processed

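Total RNA from 1 culture per genotype was labelled with biotin and hybridised to Affymetrix whole-transcript arrays, per the labels' protocols. The authors deposited 1 linear intensity per probe set and array, made with Affymetrix Expression Console per the submitters' processing notes; how background was corrected, probes summarised and arrays normalised was not stated there. Median intensity was 68.6 in MatDup.dist7 and 64.2 in PatDup.dist7. Of 35557 probe sets, 21789 had 1 gene symbol in the platform annotation, 1621 had several and 12147 had none; only the first were used.

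From these, log2(intensity + 16) was computed and probe sets of a gene were averaged (pandas 2.3.3, NumPy 2.4.6). Calls were made at 2-fold. The signal filter was the 50th percentile of all values. With 1 array per genotype there is no test and no p-value, and the number of arrays limits precision. The calculation was tested on simulated data, with changes larger than the 2-fold call set only into probe sets well above the signal filter. That test does not cover dim genes. Promoter windows came from RefSeq (GRCm38.p6). All members are accounted for; values are given for those 2-fold apart, those above the 90th percentile, the largest difference per class and others added to show each class. In the collagen-handling list, genes 2-fold apart and the brightest per role are named; Ddr2, Hspg2 and the cartilage collagens were picked after their values were seen. Members and lists were chosen with earlier results of these data known.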

Additional observations from a re-analysis of the deposited data

How the results depend on the processing

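The median over the 37 collagens and the class medians, apart from those named here, stayed within the 0.40 spread between probe sets under the alternatives tried. All 11 bright collagens were lower in MatDup.dist7 under each of the 9 alternatives, but most of these could not change a sign. Each of the 11 has 1 probe set, so only median centring and quantile normalisation could do so. Median centring moved every gene toward lower MatDup.dist7. The median of all 2116 genes at that level ranged from -0.21 with median centring to -0.08 with quantile normalisation. Percentages beside the counts below give the share of all genes at the same setting. The number of collagens at least 2-fold higher in MatDup.dist7 (0) became 3 with a pseudocount of 1 (10.9%). It became 2 with a floor at the 25th percentile (5.13%), 1 with the highest probe set per gene (4.53%) and 3 at 1.5-fold (15.5%). The number higher in PatDup.dist7 (5) became 1 with a pseudocount of 64 (0.401%) and 7 with a pseudocount of 1 (8.55%) or the floor (3.92%). It became 3 of 30 with the signal filter (2.41%), which Col18a1 passes in PatDup.dist7 alone. It became 6 with median centring (4.13%), 4 of 36 without probe sets under 1 (2.70%) and 13 at 1.5-fold (12.5%). The beaded-filament median became 0.0081 with a pseudocount of 1, -0.54 with the signal filter and -0.47 without probe sets under 1, the last 2 of which drop Col6a5 or 1 of its probe sets. The median of Col26a1 and Col28a1 became -2.26 and -0.57 with pseudocounts of 1 and 64. In the collagen-handling list, the median became -0.0012 with the signal filter and -0.074 with median centring. Its count higher in MatDup.dist7 (3) became 0 with a pseudocount of 64 (0.466%) and 5 at 1.5-fold (15.5%). It became 2 with quantile normalisation (3.88%) and with median centring (3.49%). The list's count higher in PatDup.dist7 (1) became 2 with a pseudocount of 1 (8.55%), with the floor (3.92%) and at 1.5-fold (12.5%). It became 0 with a pseudocount of 64 (0.401%). The causes were not tested otherwise. No paired analysis was possible because each genotype has 1 array.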

Other observations

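Collagen genes that are next to each other on a chromosome can also be read as pairs, and each pair lies within a single class. Col3a1 and Col5a2, neighbours on chromosome 1, had differences of -0.50 and -0.50, and Col6a2 and Col6a1 on chromosome 10 had -0.84 and -0.54. Col4a1 and Col4a2 on chromosome 8 had -0.75 and -0.53, and Col6a6 and Col6a4 on chromosome 9 had 0.43 and 0.93. Col6a5, which lies between them, averaged 0.76, but its probe sets gave 1.90 and -0.39, so its direction is not settled. Col4a4 and Col4a3 on chromosome 1 (-1.77 and 0.74) and Col4a6 and Col4a5 on X (0.43 and -0.61) had opposite signs, with 3 of these 4 genes under the signal filter. These pairs were looked at after the values were known, and neighbours share class, and can share probe design and level, as well as position.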
